A study of Mus musculus with 6 samples.

Results

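The genes described here encode the inducible brakes of MAP kinase signalling, 8 dual-specificity phosphatases (Dusp1, Dusp2, Dusp4, Dusp5, Dusp6, Dusp8, Dusp10 and Dusp16) and the 2 Sprouty proteins Spry1 and Spry2. They were chosen by symbol, and all 10 were found among the 24340 named genes of the deposited table. FPKM are fragments normalised to transcript length and to the library's total. All 10 genes averaged 1 FPKM or more over the 6 libraries and so were among the 11412 genes tested. The cells were primary microglia, the macrophages of the brain parenchyma, grown from newborn C57BL/6 mice. The C13 libraries came from cells that received 10 uM C13, a compound the submitters call an inhibitor of the kinase MOK, for 1 h and then 1 ug/ml LPS (lipopolysaccharide of the outer bacterial membrane) for 5 h. The vehicle libraries came from cells that received DMSO in place of C13 for 1 h and the same LPS for 5 h. There were 3 libraries per group. Every library had LPS, so the comparison shows the difference that came with C13 under LPS and not the induction of these genes by LPS. The sample titles call the libraries biological replicates, but no culture, litter or pool of animals is named in the labels. The p-values thus reflect how these samples vary, which may be partly technical variation.

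Toll-like receptor 4, the receptor for LPS, activates the MAP kinases ERK, p38 and JNK, and these in turn switch on genes that shut the same kinases off. Dual-specificity phosphatases remove both the phosphotyrosine and the phosphothreonine from the activation loop of MAP kinases, and they differ in which kinase they prefer and in whether they act in the nucleus or the cytoplasm. Sprouty proteins act upstream, where they inhibit the route from receptor tyrosine kinases through RAS to ERK. In macrophages Dusp1 is known for limiting p38 and JNK activity and the cytokine output that follows LPS.

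The upstream sequences of Dusp1, Dusp2 and Dusp5 are shown because these phosphatase genes had the lowest C13 values relative to vehicle, and that of Dusp8 because it shares a motif with Dusp1. Of the 10 genes 9 had a promoter in the RefSeq-based table (build GRCm38.p6), and the 250 bases before the annotated start were searched on both strands for 8 motifs. These were the cyclic AMP response element (CRE, TGACGTCA), AP-1 (TGACTCA), ETS (CCGGAAGT), SP1 (GGGCGG), the E-box (CACGTG), the TATA box with the letters TATAAA, the kappaB consensus and the CArG box bound by serum response factor. Capitals mark every match, and the sequences run 5′ to 3′ in the direction of transcription.
Dusp1 (chr17:26508473-26508722, minus strand): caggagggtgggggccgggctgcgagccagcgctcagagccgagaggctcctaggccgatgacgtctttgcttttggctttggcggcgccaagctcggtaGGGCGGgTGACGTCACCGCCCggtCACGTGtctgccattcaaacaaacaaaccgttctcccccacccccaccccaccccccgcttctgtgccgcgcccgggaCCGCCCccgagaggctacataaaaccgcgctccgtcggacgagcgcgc
Dusp2 (chr2:127335909-127336158, plus strand): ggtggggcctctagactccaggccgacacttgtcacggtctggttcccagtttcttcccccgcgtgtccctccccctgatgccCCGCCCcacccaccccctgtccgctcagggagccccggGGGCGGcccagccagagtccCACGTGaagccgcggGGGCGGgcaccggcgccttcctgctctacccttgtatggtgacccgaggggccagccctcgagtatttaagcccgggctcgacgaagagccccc
Dusp5 (chr19:53528895-53529144, plus strand): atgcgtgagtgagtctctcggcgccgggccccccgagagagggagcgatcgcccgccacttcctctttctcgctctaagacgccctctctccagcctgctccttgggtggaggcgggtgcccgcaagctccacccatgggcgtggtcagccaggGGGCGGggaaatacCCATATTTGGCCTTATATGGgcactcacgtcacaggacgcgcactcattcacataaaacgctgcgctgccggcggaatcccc
Dusp8 (chr7:142095285-142095534, minus strand): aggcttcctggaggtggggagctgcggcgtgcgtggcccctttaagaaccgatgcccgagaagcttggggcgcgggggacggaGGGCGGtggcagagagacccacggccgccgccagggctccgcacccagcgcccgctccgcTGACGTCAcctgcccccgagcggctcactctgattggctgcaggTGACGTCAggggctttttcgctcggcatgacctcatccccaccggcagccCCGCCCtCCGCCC

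The Dusp1 window held a CRE at -143 to -136 between SP1 matches, and an E-box at -126 to -121. The Dusp2 window held an E-box at -109 to -104 and 3 SP1 matches. In Dusp5 a pair of CArG boxes lay directly next to each other, at -82 to -73 and -72 to -63. Dusp8 held 2 CREs, at -107 to -100 and -63 to -56. A CRE was found in 2 of the 9 windows and in 2.86% of the windows of 8682 tested genes, and a CArG box in 1 of the 9 and in 1.19% of those windows. The E-box was found in 2 of the 9 (8.64% of tested genes) and SP1 in 7 of the 9 (61.2%). AP-1, ETS, TATA and kappaB matches were in 0 of the 9 windows, against 3.04%, 6.31%, 6.3% and 8.98% of the windows of tested genes. These are matches of letters in a short window, not measured binding.

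**Figure D1:**
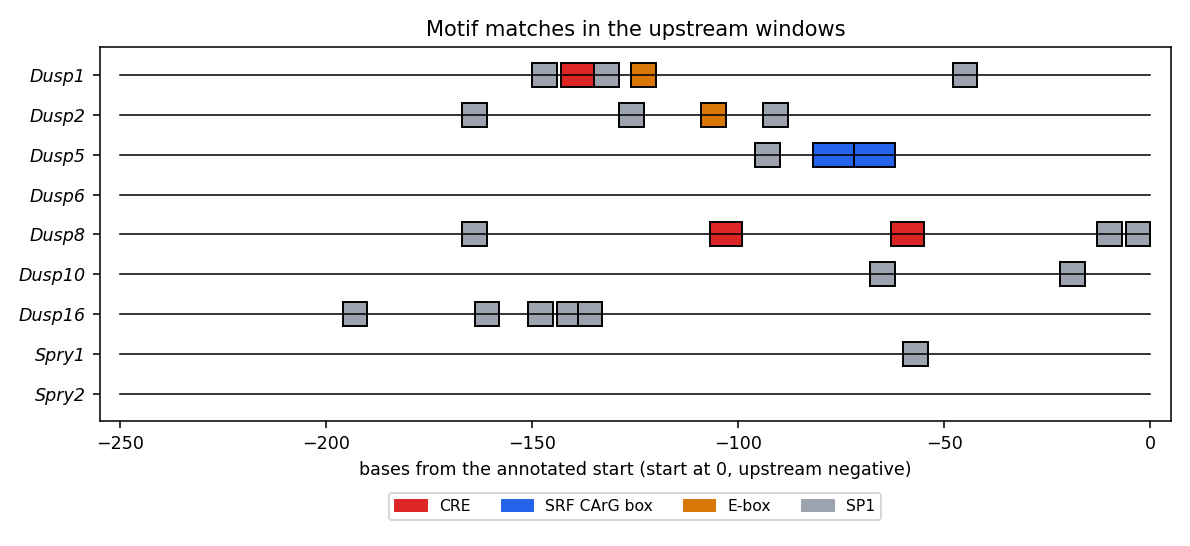
Positions of the motif matches in the 250 bases before the annotated start of 9 genes; the x axis is the distance from the start in bases, each box is a match and its colour the motif. Dusp1 and Dusp8 hold CREs, Dusp5 holds the adjacent CArG boxes, and Dusp6 and Spry2 hold none of the 8 motifs.

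The level of every member is given below on the FPKM scale, which is per length and so can be compared between genes. Dusp1 was the most abundant member in all 6 libraries and Dusp6 the second. Dusp5 and Dusp2 followed, then Spry2, Dusp16 and Dusp10, then Dusp4, and last Dusp8 and Spry1. In the C13 libraries Dusp2 (16.9 to 21.8 FPKM) lay below Dusp5 (22.35 to 24.1 FPKM) without overlap. In the vehicle libraries Dusp2 (28.4 to 32.3 FPKM) and Dusp5 (29.0 to 34.2 FPKM) overlapped, so their order there was within the spread. Dusp16 overlapped with Dusp10 and with Spry2 in the C13 libraries, and Dusp8 overlapped with Spry1.

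**Figure D2:**
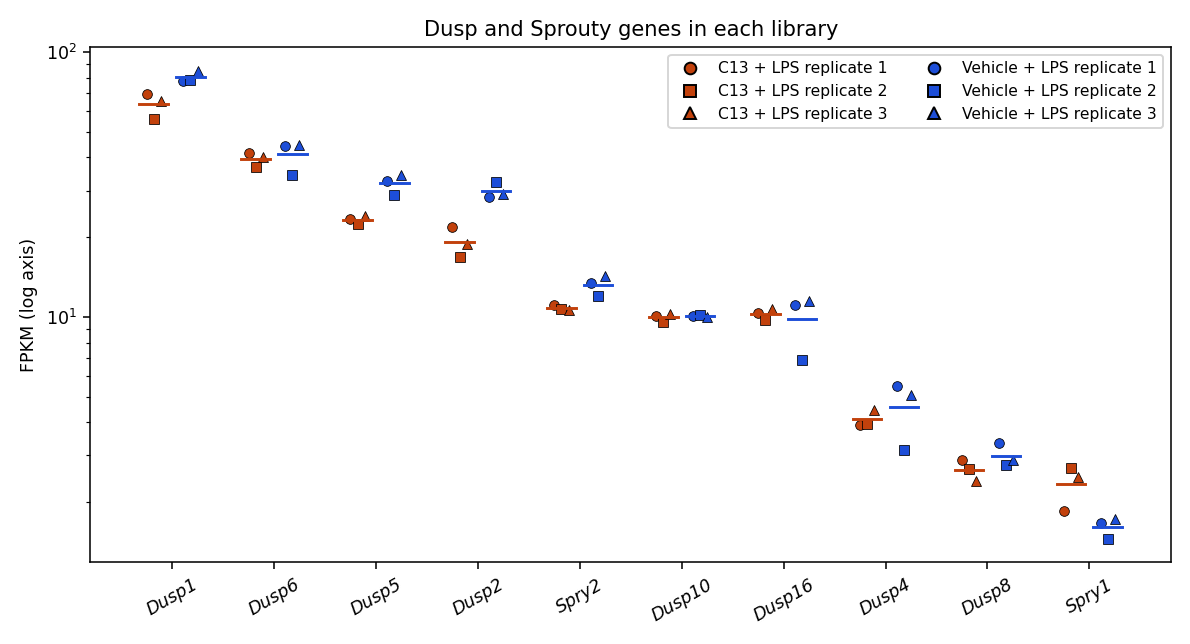
FPKM of the 10 genes in each library on a log axis, C13 libraries in orange to the left of vehicle libraries in blue, with a bar at each group's mean and the marker shape giving the replicate. Dusp1, Dusp2, Dusp5 and Spry2 lie lower in all 3 C13 libraries than in any vehicle library and Spry1 lies higher, while vehicle replicate 2 is the lowest library for Dusp4, Dusp6 and Dusp16.

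Depth and makeup bear on all of these values. Read totals are not in the table, and depth was estimated from what a single fragment is worth in weakly expressed genes, at about 11150000 to 11540000 fragments for the C13 libraries and 8930000 to 10810000 for the vehicle libraries. Vehicle replicate 2 stood apart from the rest. Its correlation with the others across tested genes had a median of 0.969, where every other library had 0.984 to 0.989, and its FPKM summed to 634451, where the others summed to 504674 to 534757. All 12 microglial markers averaged 1 FPKM or more and summed to 2350 to 2470 FPKM in the C13 libraries and 2420 to 3300 FPKM in the vehicle libraries, although the homeostatic markers Cx3cr1 and P2ry12 did not exceed 3.21 FPKM in any library. The fibroblast and vessel markers, 8 of 10 of them averaging 1 FPKM or more, summed to 3740 to 4310 FPKM with C13 and 3970 to 4280 FPKM with vehicle, and of the endothelial genes Cdh5 had 2.8 to 4.46 FPKM in all 6 libraries while Cldn5 was at or near the floor of the table. The astrocyte markers, 7 of 8 averaging 1 FPKM or more, summed to 64.5, 116 and 72.0 FPKM in C13 replicates 1, 2 and 3 and to 56.6, 48.0 and 59.9 FPKM in vehicle replicates 1, 2 and 3. The part of these cells in the results below was not tested, and in bulk RNA fewer cells of a type and less RNA per cell cannot be told apart. Mok itself was low, at 0.373 ± 0.139 FPKM with C13 and 0.375 ± 0.114 FPKM with vehicle (SD, n = 3 each), and its groups overlapped.

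The comparison asked how these feedback genes differed between C13 and vehicle under LPS. Of the 10 members 4 were lower in every C13 library than in every vehicle library (Dusp1, Dusp2, Dusp5 and Spry2), 1 was higher in every C13 library (Spry1), and 5 overlapped. Over all 11412 genes the libraries did not overlap in 9.78% on the lower side and in 6.83% on the higher side. None of the 10 passed an adjusted p of 0.05 in limma with all 6 libraries, nor did any other gene (0% called), and with 3 libraries per group a p above the threshold does not show that values did not differ. At an unadjusted p under 0.05 there were the same 4 members lower, against 4.77% of all genes, and Spry1 higher, against 2.57% of all genes. The members' median difference was -0.12 in log2(FPKM + 1), with 8 of 10 below 0, beside a median of -3e-04 and 50.1% below 0 over all genes tested. Without vehicle replicate 2 the median was -0.24 with 9 of 10 below 0, and limma called Dusp2 and Dusp5 lower, where 1.07% of all genes were called lower and 0.412% higher. The C13 libraries then lay below the remaining vehicle libraries in 8 of 10 members (20.5% of all genes) and above them in 1, Spry1 (15.3% of all genes), with Dusp10 as the member that overlapped. Dusp8 was among the 8 by a margin within its counting error.

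**Figure D3:**
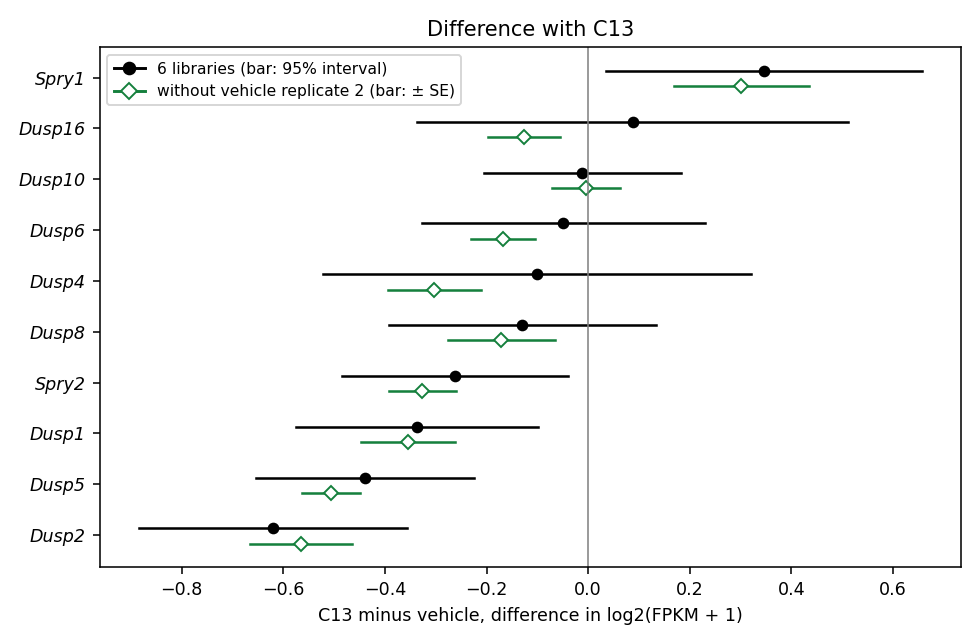
Difference between C13 and vehicle in log2(FPKM + 1) for each gene, with all 6 libraries (black, 95% interval) and without vehicle replicate 2 (green, ± SE); values below 0 are lower with C13. Dusp2 is the lowest at -0.62 and Spry1 the highest at 0.35, and the black intervals of Dusp4, Dusp6, Dusp8, Dusp10 and Dusp16 include 0.

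Among the inducible nuclear phosphatases, Dusp2, known from activated blood cells and also called PAC-1, had the lowest p of the members. Dusp2 (chromosome 2, 127336159 to 127338377, plus strand) had 21.8, 16.9 and 18.8 FPKM in C13 replicates 1, 2 and 3, against 28.4, 32.3 and 29.05 FPKM in vehicle replicates 1, 2 and 3. The groups did not overlap, and the highest C13 library lay well below the lowest vehicle library. Its mean was 19.2 ± 2.47 FPKM with C13 and 29.9 ± 2.12 FPKM with vehicle (SD, n = 3 each), a difference of -35.9% on the FPKM scale. The difference in log2(FPKM + 1) was -0.62 (SE 0.11, 95% interval -0.88 to -0.36), with limma adjusted p = 0.225 and the 39th smallest p of all genes tested. Without vehicle replicate 2 the difference was -0.57 with limma adjusted p = 0.0496, so that Dusp2 fell in that comparison by a narrow margin. With C13 replicate 2 left out as well, the C13 library with the most astrocyte marker RNA and the least Dusp2, the difference was -0.48 with limma adjusted p = 0.0982.

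Dusp5, a nuclear phosphatase that is selective for ERK, had 23.45, 22.35 and 24.1 FPKM in C13 replicates 1, 2 and 3, against 32.7, 29.0 and 34.2 FPKM in vehicle replicates 1, 2 and 3. The C13 libraries lay within a narrow band below all vehicle libraries. The gene lies on chromosome 19 (53529318 to 53541322, plus strand), and its mean was 23.3 ± 0.866 FPKM with C13 and 32.0 ± 2.70 FPKM with vehicle (SD, n = 3 each), a difference of -27.2%. On the log2(FPKM + 1) scale the difference was -0.44 (SE 0.091, 95% interval -0.65 to -0.22, limma adjusted p = 0.316). Without vehicle replicate 2 Dusp5 fell by 0.51 (SE 0.058, limma adjusted p = 0.0187), and with C13 replicate 2 also left out the difference was -0.48 with adjusted p = 0.06. Its upstream window is the one with the adjacent CArG boxes shown above.

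Dusp1, the phosphatase MKP-1 that acts on p38 and JNK in the nucleus, had 69.2, 56.0 and 65.6 FPKM in C13 replicates 1, 2 and 3. In vehicle replicates 1, 2 and 3 it had 77.6, 78.3 and 85.0 FPKM. The groups did not overlap, and the lowest library was again C13 replicate 2. Dusp1 (chromosome 17, 26505591 to 26508472, minus strand) averaged 63.6 ± 6.84 FPKM with C13 and 80.3 ± 4.08 FPKM with vehicle (SD, n = 3 each), a difference of -20.8%. In log2(FPKM + 1) it differed by -0.34 (SE 0.10, limma adjusted p = 0.51), and it was -0.35 with adjusted p = 0.123 without vehicle replicate 2, so Dusp1 did not pass in either comparison.

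Dusp4, a nuclear phosphatase of ERK and JNK also called MKP-2, was far less abundant than Dusp1. It had 3.92, 3.93 and 4.47 FPKM in C13 replicates 1, 2 and 3, against 5.505, 3.14 and 5.08 FPKM in vehicle replicates 1, 2 and 3. Vehicle replicate 2 lay below all C13 libraries and the other vehicle libraries above them, so the groups overlapped through that library. The difference in log2(FPKM + 1) was -0.10 (95% interval -0.52 to 0.32) with all libraries and -0.30 (SE 0.092, limma adjusted p = 0.164) without vehicle replicate 2. The gene lies on chromosome 8 (34807610 to 34819894, plus strand).

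Dusp6, the cytoplasmic phosphatase of ERK also called MKP-3, had 41.6, 36.8 and 40.1 FPKM in C13 replicates 1, 2 and 3. In vehicle replicates 1, 2 and 3 it had 44.15, 34.5 and 44.7 FPKM. As with Dusp4, vehicle replicate 2 was the lowest library and the other vehicle libraries were the highest. The mean of Dusp6 (chromosome 10, 99263231 to 99267489, plus strand) was 39.5 ± 2.46 FPKM with C13 and 41.1 ± 5.73 FPKM with vehicle (SD, n = 3 each). On the log2(FPKM + 1) scale C13 differed by -0.05 (95% interval -0.33 to 0.23), and -0.17 (limma adjusted p = 0.246) without vehicle replicate 2. The ratio of Dusp5 to Dusp6 within a library, which scaling of the library does not touch, was 0.563, 0.607 and 0.60 in C13 replicates 1, 2 and 3, against 0.742, 0.84 and 0.766 in vehicle replicates 1, 2 and 3. This ratio was lower in every C13 library than in any vehicle library. The pair was chosen after the values were seen and Dusp5 did not overlap by itself, so the ratio is no further support.

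Dusp10, Dusp16 and Dusp8, phosphatases that prefer JNK and p38 over ERK, each overlapped between the groups with all 6 libraries. Dusp16 and Dusp8 lay lower in every C13 library once vehicle replicate 2 was left out, and neither passed the test. For Dusp8 this rested on 2.875 FPKM in C13 replicate 1 against 2.88 FPKM in vehicle replicate 3. That margin is within its counting error of 8.0% to 8.8%. Dusp10, also called MKP-5, had 10.1, 9.59 and 10.25 FPKM in C13 replicates 1, 2 and 3 and 10.1, 10.2 and 9.97 FPKM in vehicle replicates 1, 2 and 3. Its 6 values lay closer together than those of any other member, vehicle replicate 2 included. The difference in log2(FPKM + 1) was -0.01 with a 95% interval of -0.21 to 0.18, and Dusp10 lies on chromosome 1 (184034461 to 184075636, plus strand). Dusp16, also called MKP-7, had 10.3, 9.70 and 10.7 FPKM with C13 and 11.1, 6.86 and 11.45 FPKM with vehicle, in replicates 1, 2 and 3 of each group. Vehicle replicate 2 alone lay below the C13 libraries, and the sign of the difference turned with it, from 0.09 (95% interval -0.34 to 0.51) with all libraries to -0.13 (limma adjusted p = 0.423) without it. Dusp16 lies on chromosome 6 (134715468 to 134792628, minus strand). Dusp8, best known from brain and heart, had 2.875, 2.67 and 2.41 FPKM with C13 and 3.34, 2.76 and 2.88 FPKM with vehicle, in replicates 1, 2 and 3 of each group, and the groups overlapped. Its difference was -0.13 (95% interval -0.39 to 0.13), and -0.17 (limma adjusted p = 0.468) without vehicle replicate 2, and it lies on chromosome 7 (142079487 to 142095284, minus strand). Dusp8 carries CREs in its upstream window as Dusp1 does.

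The Sprouty genes went in opposite directions, without either passing the test. Spry2 (chromosome 14, 105891947 to 105896819, minus strand), the more abundant of the pair, had 11.1, 10.7 and 10.6 FPKM in C13 replicates 1, 2 and 3, against 13.4, 11.96 and 14.25 FPKM in vehicle replicates 1, 2 and 3. The groups did not overlap, and the mean was 10.8 ± 0.29 FPKM with C13 and 13.2 ± 1.16 FPKM with vehicle (SD, n = 3 each). The difference in log2(FPKM + 1) was -0.26 (SE 0.095, limma adjusted p = 0.606), and -0.33 (SE 0.066, limma adjusted p = 0.0691) without vehicle replicate 2. Spry1 (chromosome 3, 37639947 to 37644599, plus strand) had 1.85, 2.685 and 2.49 FPKM in C13 replicates 1, 2 and 3, against 1.66, 1.45 and 1.73 FPKM in vehicle replicates 1, 2 and 3. All C13 libraries were higher, replicate 1 by little, and the mean was 2.34 ± 0.435 FPKM with C13 and 1.62 ± 0.143 FPKM with vehicle (SD, n = 3 each). Spry1 differed in log2(FPKM + 1) by 0.35 (SE 0.13, 95% interval 0.04 to 0.66, limma adjusted p = 0.63), and 0.23 with adjusted p = 0.509 without vehicle replicate 2 and C13 replicate 2. Spry1 was the least deeply covered member, at about 41 to 86 fragments per library, which alone gives a counting error of 10.8% to 15.6% of its value. The order of the C13 libraries in Spry1 was also their order in astrocyte marker sum with replicate 1 lowest and replicate 2 highest, and in the sum of the fibroblast and vessel markers, which was 3740, 4310 and 4040 FPKM in C13 replicates 1, 2 and 3. With vehicle that sum was 3970, 4200 and 4280 FPKM in replicates 1, 2 and 3, within the range of the C13 libraries. The markers of the fibroblast and vessel list did not share a pattern. Dcn had 80, 165 and 104 FPKM in C13 replicates 1, 2 and 3 and 79.6 to 83.4 FPKM with vehicle. Col1a1 had 1770, 1870 and 1880 FPKM with C13 and 1850, 2140 and 2000 FPKM with vehicle, in the same order of replicates. The astrocyte markers did not all share a pattern either. Gja1, the largest of them in every library, had 47.2, 52 and 50.5 FPKM with C13 and 32.3 to 43.8 FPKM with vehicle. Gfap had 5.8, 35.6 and 8.79 FPKM with C13 and 2.74 to 5.18 FPKM with vehicle. Sox9 had 1.96, 2.86 and 1.67 FPKM with C13 and 2.5, 1.46 and 2.71 FPKM with vehicle, in replicates 1, 2 and 3. The part of astrocyte or fibroblast RNA in Spry1 was not tested.

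Ratios within a library restate these values without the scaling to library totals. Spry2 over Spry1 was 6.02, 3.99 and 4.26 in C13 replicates 1, 2 and 3, against 8.06, 8.22 and 8.24 in vehicle replicates 1, 2 and 3. The vehicle ratios lay close together, vehicle replicate 2 included, and every C13 ratio lay below them. Against Dusp10, the member that varied least, Dusp2 stood at 2.15, 1.76 and 1.84 in C13 replicates 1, 2 and 3 and at 2.82, 3.18 and 2.91 in vehicle replicates 1, 2 and 3. Dusp5 over Dusp10 was 2.32, 2.33 and 2.35 in C13 replicates 1, 2 and 3 and 3.25, 2.85 and 3.43 in vehicle replicates 1, 2 and 3. Dusp1 over Dusp10 was 6.84, 5.84 and 6.40 in C13 replicates 1, 2 and 3 and 7.72, 7.69 and 8.52 in vehicle replicates 1, 2 and 3. None of these ratios overlapped between the groups. The pairs were chosen after the values were seen, so the ratios carry no test. Dusp1, Dusp2, Dusp5, Spry1 and Spry2 did not overlap by themselves and Dusp10 hardly varied. The lack of overlap was therefore set by the choice of pairs and is no further support.

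**Figure D4:**
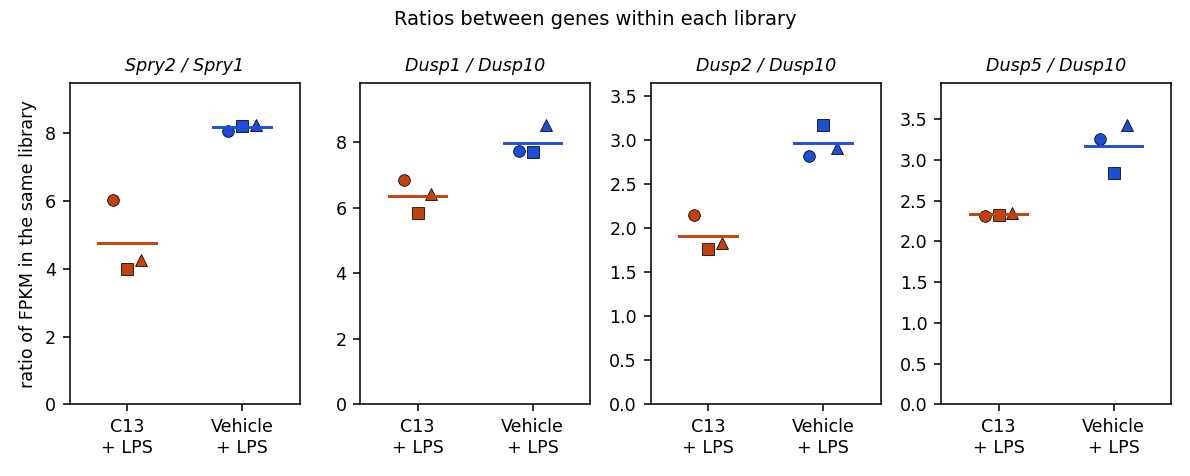
Ratio of FPKM between genes of the same library, C13 libraries in orange on the left and vehicle libraries in blue on the right, with a bar at the mean and the marker shape giving the replicate; each y axis starts at 0. Spry2 over Spry1 is 3.99 to 6.02 with C13 and 8.06 to 8.24 with vehicle. No panel has overlapping groups, which the choice of pairs set in advance.

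The makeup of the phosphatase pool is given as a description, with no test. The summed FPKM of the 8 Dusp genes was 157.9 to 183.3 in the C13 libraries and 197.0 to 222.3 in the vehicle libraries. Dusp2 made up 10.7% to 11.9% of that sum with C13 and 13.1% to 16.4% with vehicle, and Dusp5 made up 12.8% to 14.2% with C13 and 14.7% to 15.4% with vehicle. Dusp6 made up 22.7% to 23.3% with C13 and 17.5% to 20.7% with vehicle. The share of Dusp1 was 35.4% to 37.7% with C13 and 36.5% to 39.7% with vehicle and overlapped. Shares of a sum are tied to each other, so a lower share of Dusp2 raises the others, and the shares of Dusp4 and Dusp8 overlapped as that of Dusp1 did.

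The AUUUA element, written ATTTA in DNA, marks many short-lived mRNAs. In the longest annotated stretch after the stop codon, 5 of 10 members (Dusp1, Dusp2, Dusp8, Dusp10 and Dusp16) had 3 or more copies, counted with overlap, against 39.7% of 10721 tested genes. The median was 2.5 copies in the members and 2 in those genes, whose stretches were longer (median 1351 nt, against 1110 nt in the members). Among the members with low C13 values Dusp1 and Dusp2 had 4 copies each, Spry2 had 2 and Dusp5 had 1, while Dusp8 had 5 copies and overlapped between the groups with all 6 libraries.

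The rest of the MAP kinase pathway was taken from lists chosen by known role. No gene of any list passed limma's adjusted p with all 6 libraries. At an unadjusted p under 0.05 the other dual-specificity phosphatases had 1 lower and 1 higher, and the kinases downstream of MAP kinases 1 lower. The early genes had 9 lower and 1 higher and the other lists 0, beside 4.77% lower and 2.57% higher of all genes. Counts below 0 in the lists stand beside 50.1% of all genes with all libraries and 51.3% without vehicle replicate 2. Of the other dual-specificity phosphatases 15 of 21 were tested, with 8 below 0 and a median difference of -0.08 in log2(FPKM + 1). The ones with the smallest p were Dusp14 (-0.53), Dusp18 (0.33), Dusp19 (-0.23) and Dusp28 (-0.23). Dusp14 had 3.33 ± 0.838 FPKM with C13 and 5.21 ± 0.849 FPKM with vehicle (SD, n = 3 each). Dusp18 had 2.22 ± 0.258 FPKM with C13 and 1.56 ± 0.231 FPKM with vehicle (SD, n = 3 each). Neither overlapped between the groups, but both were picked for their small p. Of the 15 tested 2 were lower and 1 higher without overlap, beside 9.78% and 6.83% of all genes. Of the other Sprouty genes and the related SPRED inhibitors 4 of 5 were tested, with Spry4 at -0.05, Spred1 at 0.08, Spred2 at 0.08 and Spred3 at 6e-04. Their median was 0.038 with all libraries and -0.16, with 3 of 4 below 0, without vehicle replicate 2. Spred1 had 48.0, 42.9 and 44.5 FPKM in C13 replicates 1, 2 and 3, against 52.9, 29.1 and 50.6 FPKM in vehicle replicates 1, 2 and 3, so that vehicle replicate 2 set the sign of its difference, which was -0.20 (limma adjusted p = 0.179) without that library.

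None of the kinases in the lists, the targets of these proteins and those above and below them, passed the test with all 6 libraries or without vehicle replicate 2. Of the MAP kinases 11 of 14 were tested, with 4 below 0 and a median of 0.004, and among those with the smallest p were Mapk11 (-0.13), Mapk13 (-0.12) and Mapk14 (0.08). The p38 gene Mapk14 had 28.2 ± 1.30 FPKM with C13 and 26.8 ± 1.73 FPKM with vehicle (SD, n = 3 each). The list of the kinases above them and their activators also held genes that do not encode kinases (Tab1, Tab2, Tab3, Tnip2 and Nfkb1). Of its 26 genes 24 were tested, with 10 below 0 and a median of 0.05. Map3k4 (-0.19), Map3k8 (-0.21) and Map2k5 (0.15) were among those with the smallest p. Map3k8, the kinase TPL2 that links LPS to ERK in macrophages, had 16.9, 14.9 and 16.2 FPKM in C13 replicates 1, 2 and 3. In vehicle replicates 1, 2 and 3 it had 19.5, 15.4 and 21.3 FPKM, so it overlapped through vehicle replicate 2. Its difference without that library was -0.33 with limma adjusted p = 0.0892. Of the RAS route and the Sprouty partners 18 of 20 were tested, with 7 below 0 and a median of 0.07, led by Gab1 (0.22), Cbl (0.71), Siah2 (-0.16) and Grb2 (-0.10). The direction of this list turned without vehicle replicate 2, with 14 of 18 below 0 and a median of -0.051, beside 51.3% below 0 over all genes. The value of Cbl, a ubiquitin ligase that binds Sprouty proteins, rested on vehicle replicate 2, which had 1.41 FPKM against 7.17 and 6.75 FPKM in vehicle replicates 1 and 3, and it was 0.14 without that library. Of the kinases downstream of the MAP kinases 9 of 10 were tested, with 4 below 0 and a median of 9e-04, led by Mapkapk3 (-0.22), Rps6ka2 (0.21), Rps6ka4 (-0.18) and Mapkapk5 (-0.10).

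Early genes that respond to ERK share their inducing signals with Dusp1, Dusp2 and Dusp5. Of 25 such genes 24 were tested and 0 passed limma's adjusted p with all 6 libraries. At an unadjusted p under 0.05 there were 9 lower and 1 higher, beside 4.77% and 2.57% of all genes. Of the 24 tested 19 were below 0 with all libraries, beside 50.1% of all genes, and the median was -0.14. Without vehicle replicate 2 the median was -0.13 with 21 below 0, beside 51.3% of all genes. With the smallest p came Btg2, Egr1, Myc and Errfi1. The antiproliferative gene Btg2 had 22.5 ± 0.463 FPKM with C13 and 29.0 ± 1.29 FPKM with vehicle, a difference of -0.35 in log2(FPKM + 1). The transcription factor gene Egr1 had 25.02 ± 1.38 FPKM with C13 and 34.5 ± 3.47 FPKM with vehicle, a difference of -0.44. Myc had 39.6 ± 0.651 FPKM with C13 and 50.7 ± 3.83 FPKM with vehicle, a difference of -0.35, and Errfi1, an inhibitor of the EGF receptor, had 61.7 ± 1.68 FPKM with C13 and 82.2 ± 11.2 FPKM with vehicle, a difference of -0.40 (SD, n = 3 each). In each of these 4 genes the groups did not overlap, but they were picked for their small p. Of the 24 tested 10 were lower and 1 higher without overlap, beside 9.78% and 6.83% of all genes. Fosl2, which encodes an AP-1 subunit, went the other way and was higher in every C13 library, with 48.4 ± 2.70 FPKM with C13 and 33.5 ± 9.17 FPKM with vehicle (SD, n = 3 each). Its difference was 0.56 (limma adjusted p = 0.602), and 0.32 (adjusted p = 0.0816) without vehicle replicate 2. Without vehicle replicate 2 limma called 5 of the 24 lower (Egr1, Btg2, Myc, Klf6 and Errfi1) and 0 higher, where 1.07% of all genes were called lower and 0.412% higher. Of all genes tested, 122 were called lower in that comparison, and 2 when C13 replicate 2 was left out as well. The list was chosen with earlier results of these data known, so its direction is no independent support for that of the members.

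**Figure D5:**
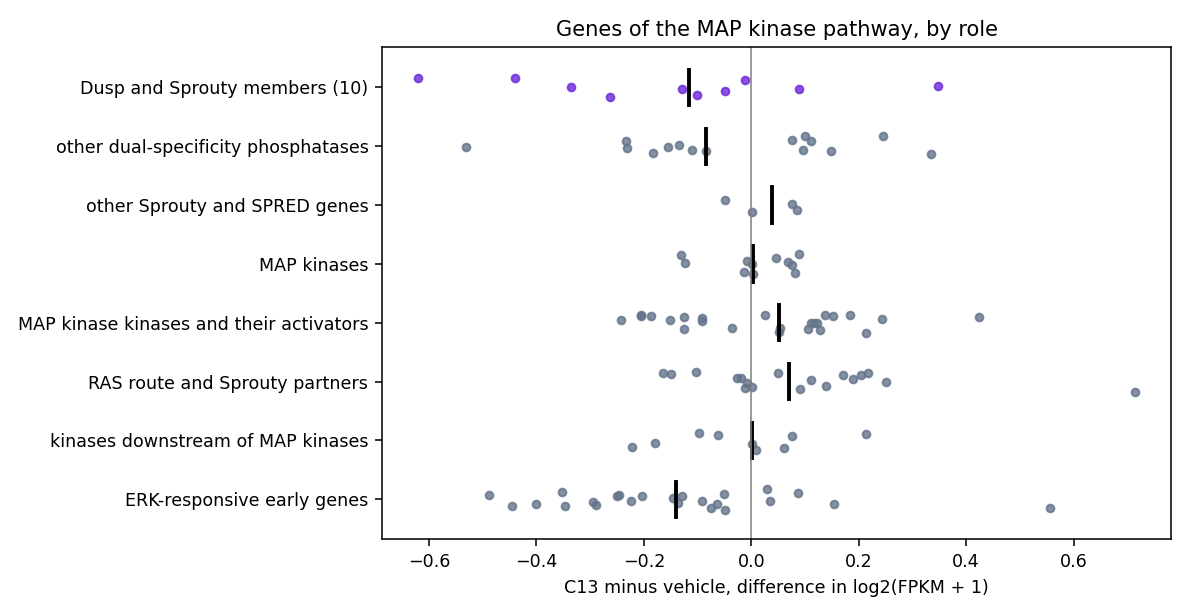
Difference between C13 and vehicle in log2(FPKM + 1) for each tested gene of 8 lists, with a black bar at each list's median; points are genes and values below 0 are lower with C13. With all 6 libraries the medians are -0.12 for the Dusp and Sprouty members, -0.14 for the ERK-responsive early genes and between -0.08 and 0.07 for the other lists, which without vehicle replicate 2 (not drawn) lay between -0.16 and -0.014.

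Across the 6 libraries the tested genes with the pattern most like that of Dusp2 were Acot9 (Pearson r = 0.9996), Phldb1 (r = 0.9989) and Eng (r = 0.9972) on the log2(FPKM + 1) scale. They are given as the 3 highest values of r among the 11412 genes tested, over 6 libraries that share depth and scaling. All of them were lower in every C13 library, which follows from picking genes that track Dusp2, whose groups did not overlap. Their differences were -0.21, -0.15 and -0.33, with limma adjusted p of 0.599, 0.752 and 0.415.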

How the data were processed

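Poly-A RNA of 6 libraries was captured on beads and made into stranded libraries, per the labels' protocols. TopHat2 2.1.0, Cufflinks and the build mm10 are named in the submitters' processing notes. Not given in the sources used here are the annotation, the Cufflinks version and whether strand was used. The authors deposited 1 FPKM value per gene and library, with 0.01 FPKM as the lowest value, and its columns carry the names that the sample descriptions give. FPKM is scaled to transcript length and library total, so a library with unusual transcript lengths or composition differs from the others gene by gene. The loci in the table count starts from 0, and 1 was added. None of the 10 members shares its locus with another row.

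Values were transformed to log2(FPKM + 1), which understates the change of low genes. The genes that averaged 1 FPKM or more entered a fit with limma 3.58.1 (R 4.3.3, intensity trend, two-sided, Benjamini-Hochberg over 11412 genes, threshold 0.05). Intervals cover 95%. The fit was tested on simulated data, where with all 6 libraries it missed most genes changed by 0.5 on the log2 scale. With 3 against 3 libraries a permutation test could not go below an exact p of 0.1. Transcript lengths, GC content and stop codons came from GENCODE mouse M21 (GRCm38, the assembly named mm10 by UCSC), and depth was estimated from genes with a single transcript of at least 1500 nt. Fragments per gene and counting errors are estimates from these depths and lengths and cover counting error only. FPKM values are not counts, so no count test was run.

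Groups came from the sample titles. The members and all lists were chosen with earlier results of these data known. Named were all members, the 4 genes with the smallest p of each pathway list, the 3 genes most like the member with the smallest p, and Mok. A few genes that this rule took are not reported here. Klf6, Fosl2 and the markers Cx3cr1, P2ry12, Cldn5, Cdh5, Dcn, Col1a1, Gja1, Gfap and Sox9 were named after their values were seen. Alternatives were other pseudocounts, filters, scalings and fits, a replicate block, and leaving out each library. The block on the number in the sample descriptions and the fits that combine a left-out vehicle replicate 2 with another change were chosen after seeing the data.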

Additional observations from a re-analysis of the deposited data

How the results depend on the processing

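Under the 20 alternatives Dusp1, Dusp2, Dusp5 and Spry2 stayed below 0. In the 19 alternatives that held them Dusp8 stayed below 0 and Spry1 above 0. The range was -0.71 to -0.48 for Dusp2, -0.51 to -0.31 for Dusp5, -0.42 to -0.20 for Dusp1, -0.35 to -0.14 for Spry2 and 0.15 to 0.51 for Spry1. Dusp5 passed limma's threshold in 4 alternatives and Dusp2 in 2, all of them without vehicle replicate 2 or, for Dusp5 (adjusted p = 0.0327), with array weights, and no other member passed in any. Without vehicle replicate 2 and with quantile normalization Dusp2 had an adjusted p of 0.0631. The genes called over the whole table, 0 higher and 0 lower with all libraries, numbered 2 higher with rescaling to TPM, 7 higher with quantile normalization, 1 higher without the intensity trend, 13 higher and 13 lower with length and GC trends removed, and 18 higher and 24 lower with array weights. Leaving out single libraries gave 0 to 47 higher and 0 to 122 lower, and a median of the members between -0.24 and -0.040. Without vehicle replicate 2, 49 were higher and 132 lower with length and GC trends removed, 48 higher and 91 lower with quantile normalization, and 16 higher and 2 lower with C13 replicate 2 left out as well. The members' median was -0.26 with a minimum of 5 FPKM (7 members), -0.20 with quantile normalization, -0.24 with array weights and -0.013 in TPM, a scale on which the median of all genes moved to 0.13 and the members' median relative to it was -0.14. In the 3 fits that combine the missing vehicle replicate 2 with length and GC, quantile normalization or the missing C13 replicate 2 it was -0.25, -0.26 and -0.22.

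The sign turned only in members near 0. With TPM Dusp4 was 0.0086, Dusp6 0.085 and Dusp10 0.12, all below the shift of all genes. Dusp6 was 0.0196 with quantile normalization, Dusp10 0.0135 with length and GC trends removed and Dusp16 -0.068 with array weights. With single libraries left out Dusp4 ranged from -0.30 to 0.024, Dusp6 from -0.17 to 0.015, Dusp10 from -0.029 to 0.0148 and Dusp16 from -0.13 to 0.21. In the fits that combine the missing vehicle replicate 2 with length and GC, quantile normalization or the missing C13 replicate 2, Dusp16 was -0.11, -0.12 and -0.09, and Dusp10 was 0.0062 and 0.0218 in the first and last. The cause was not tested.

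Same-numbered libraries of the titles deviated from their group means with correlations of 0.089, 0.129 and 0.098, each the highest of its library but not all over 0.1. The main fit did not pair the samples by these numbers, but such correlations do not exclude a pairing. With a replicate block on the title numbers 0 genes were called and the median stayed at -0.12. The limma adjusted p was then 0.445 for Dusp2 and 0.495 for Dusp5. A block on the numbers in the sample descriptions, of which 2 are shared between the groups, rests on 2 pairs only. C13 replicate 1 and vehicle replicate 2 have no partner there and add nothing to the difference. It is thus 1 more fit in which vehicle replicate 2 does not count. It gave 16 higher and 24 lower genes, a median of -0.25 and -0.13 for Dusp16. The limma adjusted p was 0.0544 for Dusp2 and 0.062 for Dusp5. Depth limits Spry1, Dusp4 and Dusp8 most, with counting errors of 8.0% to 15.6%.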
